A study of Mus musculus with 2 samples.

Results

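Selp, Sele, Glycam1, Icam1, Icam2, Vcam1 and Ackr1, the genes of 6 leucocyte adhesion molecules and of the atypical chemokine receptor 1, were followed in tumour endothelial cells (ECs). They were chosen by name, with earlier results of these data known. The study named Ackr1 among the genes that differed between these libraries and Selp as a marker of stalk-like ECs. Counts of the 7 genes beside shares of all genes are therefore descriptions. All 7 were listed in both libraries among 17139 genes, and all 7 reached 5 CPM (UMIs of a gene per 1000000 UMIs, where a UMI is a molecular tag that counts 1 transcript) in at least 1 library, as did 9509 genes in all. The data were droplet-based single-cell RNA sequencing of live CD45-/CD31+ ECs, sorted by FACS after lysis of red cells, from subcutaneous Lewis lung carcinoma (LLC) tumours of mice whose strain is c57bl/6 in the labels and C57BL/6 J in the methods. The mice were adult by the labels and male and 8 to 9 weeks old at implantation by the methods. LLC is a mouse lung carcinoma cell line. One group received an intratumoural injection of PBS and the other of cGAMP, a cyclic dinucleotide that activates STING, at 14 µg in 70 µl of PBS. The study's methods give 24 h between injection and sampling, whereas 1 supplementary legend gives 6 h. Each group was 1 library from 1 mouse, so no difference between the groups has a replicate check, no test was made, and every interval below is an exact 95% interval for counting error only.

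There were 2517 ECs with 92081146 unique molecular identifiers (UMIs) in the PBS library, with a median per cell of 29780. In the cGAMP library 1340 ECs had 63366746 UMIs, with a median per cell of 41177, and 1 cell barcode occurred in both. Defining EC transcripts were found in nearly every cell, since with each cell reduced at random to 5000 UMIs, Pecam1 was detected in 98.2% of PBS and 97.2% of cGAMP cells and Cdh5 in 98.9% and 98.7%. A level in CPM is taken over the summed UMIs of the library or class. Transcripts of other cell types were few but unequal, with summed levels of 10 leucocyte genes of 18.5 CPM in the PBS and 44.2 CPM in the cGAMP library. Their part in the differences between libraries was not tested.

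Leucocytes leave the blood in steps, mostly through venules. They first tether and roll on selectins, which bind carbohydrates. P-selectin, encoded by Selp, is stored ready-made in Weibel-Palade bodies and E-selectin, encoded by Sele, is made when ECs are activated by cytokines, while the mucin of Glycam1 carries carbohydrates for the L-selectin of lymphocytes in high endothelial venules. Firm arrest follows when leucocyte integrins bind the immunoglobulin-like molecules of Icam1, Icam2 and Vcam1, and Ackr1 binds and carries chemokines across venular ECs without signalling through G proteins.

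The ECs were divided into classes from clusters that were built without the 7 genes and without the genes that differed at least 2-fold between the libraries. Each class was named from markers that did not include the 7 genes, namely venous-like (465 PBS and 419 cGAMP cells), arterial-like (391 and 202), tip-like (496 and 187) and proliferating (667 and 295), and 498 and 237 cells stayed unnamed. The venous-like class consisted of a larger cluster of 419 and 367 cells and a smaller one of 46 and 52 cells. The larger was led by Selp, Ackr1, Mctp1, Csf3 and Vcan and had 6 of 15 venous markers raised. These were Slco2a1, Lrg1, Aplnr, Bgn, Il1r1 and Csrp2. Nr2f2, Ephb4 and Vwf were not raised in it, and none of its leading genes was a venous marker. The smaller was led by Igfbp5, Ctsh, Adamts8, Lbp and Htr2b. It had 11 of 15 venous markers raised, Nr2f2, Ephb4 and Vwf among them, but also 4 of 15 arterial markers. Most venous-like cells were thus in a cluster named without Nr2f2, Ephb4 or Vwf raised. The arterial-like class was led by Gja4, Nts, Gja5, Mal and Slc6a6. Tip-like cells came from a cluster led by Gal, Chga, Gm37800, Bmp2 and Cxcr4 and a cluster led by Ankrd1, Pgf, Bnip3, Adm and Cxcl12, and proliferating cells were led by Hist1h1b and other histone genes or by Cenpf and Ube2c. Venous-like cells were 18.5% (17.0 to 20) of the PBS and 31.3% (28.8 to 33.8) of the cGAMP library. Sorting, dissociation and cell capture can set such shares, and their part was not tested. Since cells were clustered on their transcripts, the comparison of venous-like with other ECs is a description.

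Selp, Sele, Icam1 and Ackr1 varied together from cell to cell, and their promoters are therefore shown. RefSeq promoter windows on GRCm38.p6, from 250 bases before to 50 bases after the start site, were found for 5 of the 7 genes, the fifth being Glycam1. They were searched on both strands for GGGNNNNNCC, a loose form of the site bound by NF-kB, and for GAAANNGAAA, the core of the interferon-stimulated response element (N is any base), and also for TGANTCA, the AP-1 site, and TATAAA, the TATA box. Capitals mark matches to GGGNNNNNCC and GAAANNGAAA in the windows of Selp (chr1:164115014-164115313, plus strand), Sele (chr1:164047984-164048283, plus strand), Icam1 (chr9:21015690-21015989, plus strand) and Ackr1 (chr1:173333454-173333753, minus strand).
Selp: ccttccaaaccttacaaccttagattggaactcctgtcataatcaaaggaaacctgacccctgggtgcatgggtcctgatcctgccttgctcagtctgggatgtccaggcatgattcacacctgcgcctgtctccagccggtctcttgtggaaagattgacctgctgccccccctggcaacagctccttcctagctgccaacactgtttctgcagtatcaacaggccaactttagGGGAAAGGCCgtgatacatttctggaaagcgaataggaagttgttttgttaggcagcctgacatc
Sele: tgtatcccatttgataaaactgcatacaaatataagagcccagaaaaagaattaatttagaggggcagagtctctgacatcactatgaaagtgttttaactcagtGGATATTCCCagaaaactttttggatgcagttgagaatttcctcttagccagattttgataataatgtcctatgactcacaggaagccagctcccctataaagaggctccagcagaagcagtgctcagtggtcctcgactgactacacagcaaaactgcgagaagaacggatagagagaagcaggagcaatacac
Icam1: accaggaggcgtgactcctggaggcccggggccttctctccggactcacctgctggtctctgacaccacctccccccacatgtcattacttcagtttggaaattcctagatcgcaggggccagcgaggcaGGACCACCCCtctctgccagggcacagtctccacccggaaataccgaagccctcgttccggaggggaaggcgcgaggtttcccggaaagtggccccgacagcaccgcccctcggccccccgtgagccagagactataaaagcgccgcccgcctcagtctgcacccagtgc
Ackr1: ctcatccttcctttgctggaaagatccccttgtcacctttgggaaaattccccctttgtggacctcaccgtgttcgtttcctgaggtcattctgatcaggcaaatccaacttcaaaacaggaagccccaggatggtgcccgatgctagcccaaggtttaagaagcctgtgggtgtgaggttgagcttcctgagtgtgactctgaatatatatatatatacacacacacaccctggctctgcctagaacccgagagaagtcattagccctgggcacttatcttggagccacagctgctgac
In the Selp window GGGAAAGGCC lay at -15 from the start site. In the Sele window GGATATTCCC, the reverse form of the NF-kB motif, lay at -145. The Icam1 window had GGACCACCCC at -120. TGATTCA lay at -139 in the Selp and TGACTCA at -73 in the Sele window, and TATAAA at -49 in the Sele window and at 14 in the Icam1 window. All places are counted from the RefSeq start site. The GENCODE start of Icam1 (21015985) lies near the downstream end of its window, so this TATAAA lies upstream of that start. The GENCODE start of Ackr1 (173333750, minus strand) lies near the upstream end of its window, so most of that window lies within the GENCODE gene. The Ackr1 and Glycam1 windows had none of these motifs, and GAAANNGAAA was in none of the 5 windows. Among all 32851 windows of that length, 50.8% held GGGNNNNNCC, 3.44% GAAANNGAAA, 7.81% TGANTCA and 13.6% TATAAA, so that the first of these is common. A match describes these letters alone and is not a shown binding site.

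Over all ECs, each of the 7 genes was higher in the cGAMP library, by a median log2 ratio of 0.77 against -0.08 over all 9509 genes above the minimum of 5 CPM. Ackr1 and Glycam1, 2 of the 7, were at least 2-fold higher, as were 1.82% of the 9509 genes, and none of the 7 was at least 2-fold lower, against 1.70% of all. The genes differed in where they were found. Selp, Sele, Glycam1, Icam1 and Ackr1 were at least 2-fold higher in venous-like than in other ECs of both libraries, 5 of 7 in each, which held for 3.98% of 9671 genes in the PBS and 3.08% of 9492 genes in the cGAMP library. Vcam1 joined them, making 6, in the PBS library at clustering resolutions of 0.3 and 0.8 and without integration, and in the cGAMP library at 1.2. Vcam1 was found in all classes, and Icam2 was lower in venous-like cells. Within venous-like cells the picture between the libraries was narrower, with 1 gene of 7, Ackr1, at least 2-fold higher in the cGAMP library against 2.45% of 9519 genes, and none at least 2-fold lower against 3.89%. Ackr1 fell short of 2-fold there under most other ways of forming the classes.

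**Figure D1:**
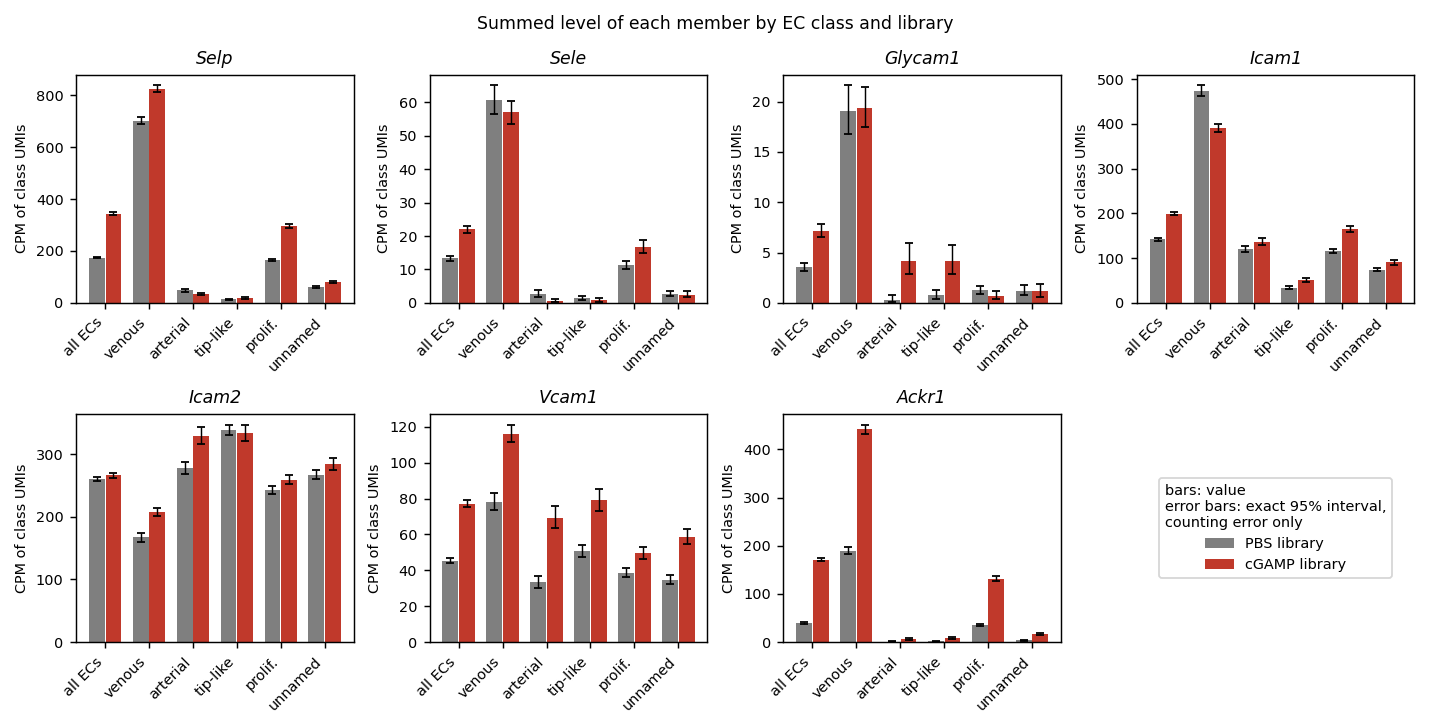
Summed level of each of the 7 genes (vertical axis, CPM of the UMIs of the class, from 0 on a scale of its own for each gene) over all ECs and in each class, with grey bars for the PBS and red bars for the cGAMP library, and exact 95% intervals for counting error as error bars. Selp, Sele, Glycam1, Icam1 and Ackr1 stand highest in venous-like cells, Icam2 stands lowest there, and Ackr1 goes from 189.8 to 442 CPM in that class.

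Selp lies on chromosome 1 of GRCm38 from 164115264 to 164150026 on the plus strand, 57.6 kb beyond the end of Sele, which lies from 164048234 to 164057677 on the same strand. Selp overlaps the antisense gene Gm16587 (0 and 5 UMIs in the PBS and cGAMP libraries) and, at its 3′ end, the long non-coding RNA Gm16548 on the opposite strand (19 and 21 UMIs), small beside its own 16008 and 21817 UMIs. The level of Selp was 174 CPM (171 to 177) in the PBS and 344 CPM (340 to 349) in the cGAMP library, a log2 ratio of 0.99 (0.96 to 1.02), just short of 2-fold.

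In the PBS library Selp was at 703 CPM in venous-like, 164 in proliferating, 60.2 in unnamed, 47.4 in arterial-like and 14.3 in tip-like cells. In the cGAMP library the same order held, with 826, 295, 79.8, 32.3 and 17.9 CPM, and no interval overlapped that of its neighbour in either library. Venous-like cells thus had 8.16 times the level of all other ECs in the PBS and 5.83 times in the cGAMP library, and they held 57.5% and 71.1% of all Selp UMIs. The smaller venous-like cluster had the highest levels of all clusters, 1230.2 CPM in the PBS and 999.7 CPM in the cGAMP library. In cells reduced to 5000 UMIs, Selp was detected in 79.7% (75.7 to 83.3) of PBS and 87.8% (84.3 to 90.8) of cGAMP venous-like cells. Over all ECs it was detected in 30.7% and 44.2%, and without that reduction in 54.1% and 64.9%.

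The ratio of the libraries for Selp differed between the classes as formed here. The log2 ratio of cGAMP over PBS was 0.23 (0.19 to 0.27) in venous-like, 0.85 (0.79 to 0.90) in proliferating, 0.33 (0.03 to 0.62) in tip-like and -0.55 (-0.78 to -0.33) in arterial-like cells. The tip-like value was above 0 under 4 of 7 other ways of forming the classes and ranged from -1.31, without integration, to 1.18. The arterial-like value was below 0 under 3 of these 7 and ranged from -0.86 to 0.24. With each class given the same weight in both libraries, the ratio over all ECs went from 0.99 to 0.39. The venous-like value was not settled by these data, because it ranged from -0.55 without integration of the libraries to 0.59 when cells were assigned by marker ranks, and was above 0 under 3 of 7 other ways of forming the classes.

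Platelets also hold P-selectin, and among 6 platelet genes in the files the summed level was 16.3 CPM in the PBS and 24.9 CPM in the cGAMP library, and 34.5 and 42.6 CPM in venous-like cells. Most of the venous-like level was Itga2b, at 32.4 and 35.2 CPM, and Pf4, which macrophages also express, was at 1.99 and 7.08 CPM, whereas Ppbp, a defining platelet transcript, was at 0.153 and 0.107 CPM and Gp9 at 0 and 0.0533 CPM. In cells with a UMI of Selp the platelet sum was 20 CPM in the PBS and 29.7 CPM in the cGAMP library, against 10.8 and 14 CPM in cells without one. The part of platelet RNA in the Selp level was not tested. The planned filter left out 966 PBS and 796 cGAMP cells with leucocyte or platelet UMIs, many of them venous-like through Itga2b. Under that filter the log2 ratio of Selp was 0.61. It was 0.80 when the 98 PBS and 232 cGAMP cells with any UMI of Ptprc, Ppbp, Gp9, S100a8 or S100a9 were left out, a choice made after seeing the data.

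**Figure D2:**
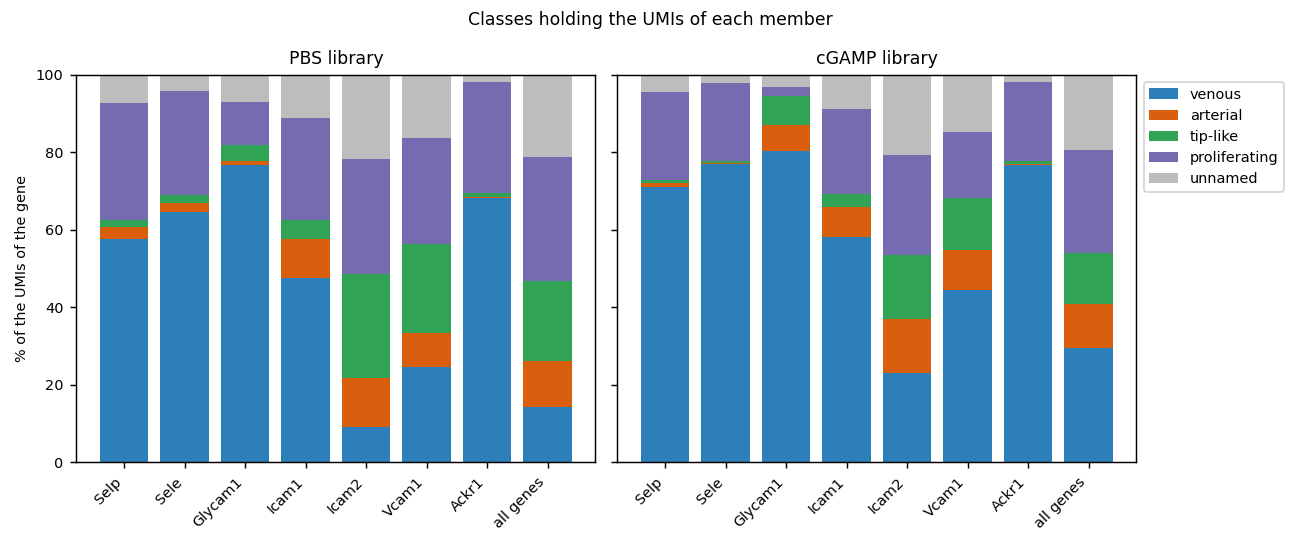
Percentage of the UMIs of each gene (vertical axis) that came from each class of ECs, stacked to 100%, in the PBS library on the left and the cGAMP library on the right. The last bar gives all genes together. Venous-like cells hold 14.2% of all UMIs in the PBS and 29.6% in the cGAMP library but 68.3% and 76.6% of those of Ackr1.

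Sele was at 13.4 CPM (1232 UMIs) in the PBS and 22.0 CPM (1391 UMIs) in the cGAMP library, a log2 ratio of 0.71 (0.60 to 0.83). It was found mostly in the classes that were also highest in Selp, at 60.7 CPM in venous-like and 11.2 in proliferating cells of the PBS library and 57.0 and 16.8 CPM in those of the cGAMP library. Arterial-like, tip-like and unnamed cells were at or below 2.63 CPM in both libraries, and the intervals of neighbouring classes among these overlapped, except between unnamed and tip-like cells of the cGAMP library. Venous-like cells had 11 times the level of other ECs in the PBS and 7.95 times in the cGAMP library. Within venous-like cells the log2 ratio of Sele was -0.09 (-0.22 to 0.04), an interval that includes 0, and it ranged from -1.07 to 0.41 over 7 other ways of forming the classes. Sele was detected in 21.0% and 19.4% of these cells reduced to 5000 UMIs. With class proportions held equal the ratio over all ECs was 0.033. In arterial-like cells Sele had 29 UMIs in the PBS and 3 in the cGAMP library, a log2 ratio of -2.65 (-5.01 to -0.97). In the smaller venous-like cluster it was at 234 CPM in the PBS and 137 CPM in the cGAMP library, above its 45.9 and 50.4 CPM in the larger cluster.

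Glycam1, on chromosome 15 from 103562759 to 103565081 on the minus strand, was at 3.54 CPM (326 UMIs) in the PBS and 7.15 CPM (453 UMIs) in the cGAMP library, a log2 ratio of 1.01 (0.81 to 1.22). A few cells held most of it. In the PBS library 51 ECs had a UMI of Glycam1, and the 10 cells with the most held 63.8% of its UMIs, with up to 52 in 1 cell. In the cGAMP library 74 ECs had one, and the top 10 cells held 54.1%, with up to 47 in 1 cell. Of the cells with at least 5 UMIs of Glycam1, 14 of 20 were venous-like in the PBS and 21 of 27 in the cGAMP library.

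Of these cells, 18 of the 20 in the PBS and 23 of the 27 in the cGAMP library also had a UMI of Selp, which 95.1% and 97.9% of all venous-like cells had, and 16 in each library had one of Ackr1, which 53.3% and 84.2% of venous-like cells had. Within venous-like cells the r of Glycam1 with Selp was 0.07 and 0.01. Of the enzymes that sulfate L-selectin ligands, Chst2 was found in 20 and 24 of the cells with at least 5 UMIs of Glycam1, and Chst4 in 4 and 9. Chst2 was also found widely, at 104 and 106 CPM over all ECs and 123 and 137 CPM in venous-like cells. Fut7, Madcam1 and Ccl21a were found in 0 of these Glycam1 cells in both libraries. Per class, Glycam1 in venous-like cells was 19.1 CPM (16.8 to 21.6) in the PBS and 19.4 CPM (17.4 to 21.5) in the cGAMP library. It had 3 and 30 UMIs in arterial-like, 14 and 34 in tip-like, and 36 and 11 in proliferating cells. In reduced cells Glycam1 was detected in 0.981% and 1.88%, below the 1.80% and 4.90% found for Lyz2, a leucocyte transcript, and the part of free RNA in it was not tested. The log2 ratio of Glycam1 moved from 1.01 to 0.71 when each cell counted equally and to 1.89 with a mitochondrial limit of 5%. The causes of these moves were not tested.

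Icam1, on chromosome 9 from 21015985 to 21028817 on the plus strand and overlapped at its 3′ end by the antisense gene Gm47079 (7 and 11 UMIs), was at 142 CPM in the PBS and 199.6 CPM in the cGAMP library, a log2 ratio of 0.50 (0.46 to 0.53). Its protein binds the leucocyte integrins LFA-1 and Mac-1. In the PBS library it was at 474 CPM in venous-like, 119.9 in arterial-like, 116 in proliferating, 74.2 in unnamed and 33.7 in tip-like cells, and the arterial-like and proliferating intervals overlapped. In the cGAMP library it was at 391.7, 137, 165, 90.7 and 50.3 CPM in the same classes. Icam1 was therefore lower in venous-like cells of the cGAMP library, with a log2 ratio of -0.28 (-0.32 to -0.23), and higher in arterial-like (0.19), proliferating (0.51) and tip-like cells (0.58). The sum of these left a ratio of 0.037 over all ECs when class proportions were held equal. The venous-like ratio was below 0 under 6 of 7 other ways of forming the classes, from -0.74 to -0.43, and 0.03 by marker ranks. Tip-like cells with a UMI of Icam1 went from 10.4% (7.85 to 13.5) to 20% (14.5 to 26.5) after reduction to 5000 UMIs.

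Icam2, on chromosome 11 from 106377656 to 106388075 on the minus strand, is expressed by resting endothelium, and its product is another ligand of LFA-1. It differed least between the libraries, at 261 and 267 CPM, a log2 ratio of 0.03 (0.002 to 0.06). It was the reverse of Selp in its place, since it was highest in tip-like cells (339 CPM in the PBS and 334 CPM in the cGAMP library) and lowest in venous-like cells (167 and 208 CPM). Arterial-like cells had 278 and 329.9 CPM, unnamed 267 and 284, and proliferating 243 and 259.6. The tip-like and arterial-like intervals overlapped in the cGAMP library, and the arterial-like and unnamed intervals overlapped in the PBS library. The level in venous-like cells was 0.605 times that of other ECs in the PBS and 0.713 times in the cGAMP library. The log2 ratio of Icam2 was 0.31 (0.24 to 0.39) in venous-like and 0.25 (0.17 to 0.33) in arterial-like cells, and these intervals overlapped. Tip-like cells were where the libraries differed least in Icam2, by -0.02 (-0.09 to 0.04).

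Vcam1, on chromosome 3 from 116109949 to 116129688 on the minus strand, encodes the ligand of the integrin VLA-4 and is induced on ECs by cytokines. It was at 45.3 CPM (4175 UMIs) in the PBS and 77.2 CPM (4895 UMIs) in the cGAMP library, a log2 ratio of 0.77 (0.71 to 0.83). Its level differed among classes by less than that of Selp, from 33.3 CPM in arterial-like to 78.2 CPM in venous-like cells of the PBS library and from 49.7 CPM in proliferating to 116 CPM in venous-like cells of the cGAMP library. Vcam1 was higher in the cGAMP library within each class, by a log2 ratio of 0.57 (0.46 to 0.68) in venous-like, 1.06 (0.86 to 1.26) in arterial-like, 0.64 (0.49 to 0.78) in tip-like and 0.36 (0.23 to 0.49) in proliferating cells, and it was above 0 in these 4 classes under all 7 other ways of forming them. With class proportions held equal the ratio was 0.61. The share of cells with a UMI, after reduction to 5000, went from 7.47% (5.02 to 10.6) to 23.1% (17.4 to 29.6) in arterial-like and from 24.3% (20.4 to 28.5) to 38.5% (33.8 to 43.4) in venous-like cells. Pericytes and fibroblasts can also hold Vcam1. The summed level of 7 pericyte genes was 58.6 CPM in the PBS and 67.4 CPM in the cGAMP library, of which Kcnj8 (24.6 and 36.1 CPM), a leading gene of a tip-like cluster, and Abcc9 (18.3 and 21.7 CPM) were higher in the cGAMP library and the other 5, such as Rgs5 (5.46 and 1.75 CPM), were lower, and that of 6 fibroblast genes was 8.30 and 3.46 CPM. In cells with a UMI of Vcam1 the pericyte sum was 54.6 and 58.0 CPM, against 63.5 and 96.5 CPM in cells without one, and the fibroblast sum was 8.49 and 3.73 CPM against 8.06 and 2.60 CPM. Their part in the Vcam1 level was not tested.

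Ackr1, on chromosome 1 from 173331886 to 173333750 on the minus strand, had the highest ratio of the 7. It was at 39.5 CPM (3640 UMIs) in the PBS and 171 CPM (10832 UMIs) in the cGAMP library, a log2 ratio of 2.11 (2.06 to 2.17) or 4.32-fold. Its 5′ part lies within Cadm3 on the same strand, a gene with 285 and 530 UMIs. The level in venous-like cells was 189.8 CPM (182 to 197) in the PBS and 442 CPM (432 to 452) in the cGAMP library, in proliferating cells 35.4 and 132 CPM, in unnamed 3.48 and 16.5, in tip-like 1.74 and 8.95 and in arterial-like 0.817 and 6.55 CPM. The intervals of tip-like and arterial-like cells overlapped in both libraries and those of the other neighbours did not. Venous-like cells had 13 times the level of other ECs in the PBS and 7.77 times in the cGAMP library.

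Within each class Ackr1 was higher in the cGAMP library, by a log2 ratio of 1.22 (1.15 to 1.28) in venous-like, 1.90 (1.79 to 2.0) in proliferating, 2.36 (1.75 to 3.0) in tip-like and 3.0 (1.96 to 4.22) in arterial-like cells, although the last rests on 9 and 47 UMIs. Over 7 other ways of forming the classes the tip-like ratio ranged from 0.029, without integration, to 3.41 and the arterial-like ratio from 1.01 to 3.38. With class proportions held equal the ratio over all ECs was 1.41. Under the 7 other ways of forming the classes the venous-like ratio stayed above 0 but went from 0.22 without integration to 1.59 by marker ranks, and under 6 of them it was below 2-fold. As the classes were formed here, it was 1.39 (1.31 to 1.46) in the larger venous-like cluster and 0.51 (0.37 to 0.66) in the smaller. Ackr1 was detected in 37.7% (33.3 to 42.4) of PBS and 63.9% (59.1 to 68.5) of cGAMP venous-like cells reduced to 5000 UMIs, and in 53.3% and 84.2% of these cells unreduced. In arterial-like cells Ackr1 was detected in 0.267% and 1.51% of reduced cells, beside 1.07% and 5.53% for Lyz2 there. Median depths of arterial-like cells were 21191 UMIs in the PBS and 28942 UMIs in the cGAMP library, against 21804 and 38436 UMIs in venous-like cells. The part of free RNA in the arterial-like Ackr1 UMIs was not tested. Red cells also hold Ackr1 protein, and the summed level of 5 red cell genes was lower in cells with an Ackr1 UMI, at 2.22 CPM in the PBS and 5.39 CPM in the cGAMP library, than in cells without one, at 134 and 137 CPM, but 1 cell held 6157 of the 10307 red cell UMIs of the PBS library and 1 cell 4338 of the 4933 of the cGAMP library. The planned filter left out cells with leucocyte or platelet UMIs, many of them venous-like through Itga2b. Under that filter the log2 ratio of Ackr1 was 1.57. It was 1.98 without the cells that had a UMI of Ptprc, Ppbp, Gp9, S100a8 or S100a9, a choice made after seeing the data.

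**Figure D3:**
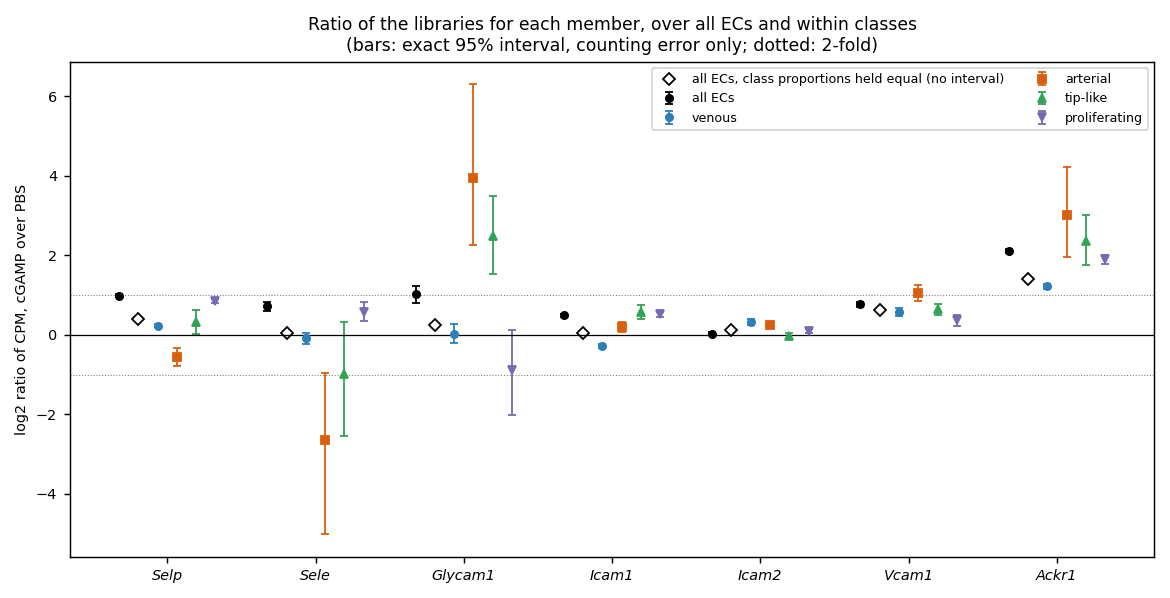
Log2 ratio of CPM in the cGAMP over the PBS library (vertical axis) for each gene, over all ECs as found (filled black circles), over all ECs with class proportions held equal (open diamonds, no interval), and within venous-like, arterial-like, tip-like and proliferating cells (coloured), with exact 95% intervals for counting error as bars and dotted lines at 2-fold. Ackr1 and Vcam1 lie above 0 in all 4 classes, while Icam1 is at -0.28 in venous-like cells and above 0 in the other classes.

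Beyond venous-like cells, counts of the 7 genes at least 2-fold higher in the cGAMP library were 3 in arterial-like cells (Glycam1, Vcam1 and Ackr1) against 2.45% of 9435 genes, 2 in tip-like cells (Glycam1 and Ackr1) against 1.96% of 9200, and 1 in proliferating cells (Ackr1) against 1.68% of 9489. The counts for Glycam1 rest on few cells, with 3 and 30 UMIs in 2 and 9 arterial-like cells and 14 and 34 UMIs in 3 and 4 tip-like cells. Sele, 1 of the 7, was at least 2-fold lower in arterial-like cells, against 3.59% of all genes, on 29 and 3 UMIs.

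Proliferating cells came next to venous-like cells for Selp, Sele and Ackr1, and they were divided, after seeing the data, by whether their venous, arterial or tip markers ranked highest. The venous markers include Lrg1, Slco2a1 and Csrp2, which were among the 5 genes most like Selp by rank correlation over the cells of these libraries. The shares below are therefore descriptions and not a test. The 263 of 667 PBS and 114 of 295 cGAMP proliferating cells with venous markers highest held 83.5% and 84.8% of the Selp UMIs of the class, 90.0% and 95.7% of those of Sele and 96.4% and 93.9% of those of Ackr1. In these cells Ackr1 was at 95.2 CPM in the PBS and 333 CPM in the cGAMP library, a log2 ratio of 1.81 (1.70 to 1.92), and Selp was at 382 and 672 CPM, a ratio of 0.82 (0.75 to 0.88). In proliferating cells with tip markers highest Ackr1 was at 2.32 and 9.62 CPM, near its level in tip-like cells. Vcam1 was more even, since cells with venous markers highest held 48.0% and 52.9% of its UMIs. By cluster, proliferating cells led by Hist1h1b had log2 ratios of cGAMP over PBS of 0.99 for Selp, 0.77 for Sele and 2.17 for Ackr1. In those led by Cenpf the ratios were 0.31, -1.31 and 0.57.

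The number of UMIs of Ackr1 and Icam1 per 100 UMIs of Selp differed between classes more than that of Sele did in the PBS library. In the PBS library there were 27.0 of Ackr1 per 100 of Selp in venous-like, 21.6 in proliferating, 12.2 in tip-like and 1.72 in arterial-like cells. In the cGAMP library there were 53.5, 44.7, 50 and 20.3. For Icam1 there were 67.5 per 100 of Selp in venous-like and 253 in arterial-like cells of the PBS library, and 47.4 and 423 in those of the cGAMP library. For Sele there were 8.64 per 100 of Selp in venous-like, 6.82 in proliferating, 10 in tip-like and 5.56 in arterial-like cells of the PBS library, and 6.91, 5.69, 4.05 and 1.29 in those of the cGAMP library. In tip-like cells of the cGAMP library the Ackr1 ratio was thus close to that of venous-like cells, and the part of free RNA in the 74 Ackr1 UMIs of these cells was not tested.

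**Figure D4:**
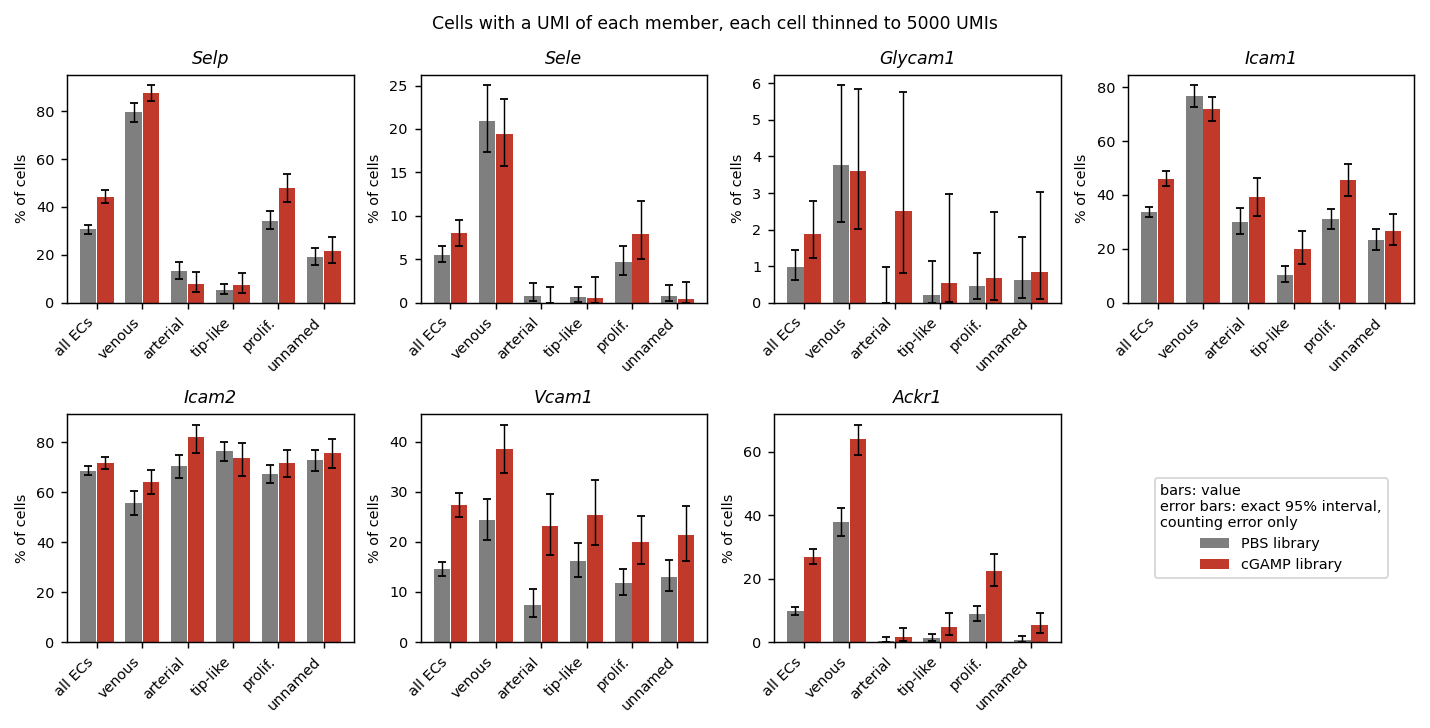
Percentage of cells with at least 1 UMI of each gene (vertical axis, from 0) over all ECs and in each class after each cell was reduced at random to 5000 UMIs, with grey bars for the PBS and red bars for the cGAMP library and exact 95% intervals for counting error as error bars. In venous-like cells Ackr1 goes from 37.7% to 63.9% while Sele is at 21.0% and 19.4%.

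Counting Selp, Sele, Icam1, Vcam1 and Ackr1 together in cells reduced to 5000 UMIs, 12.4% (11.1 to 13.8) of PBS and 25.9% (23.6 to 28.4) of cGAMP ECs had UMIs of at least 3 of the 5 genes, and 49.0% and 31.7% had none. In venous-like cells at least 3 were found in 47.7% (43.0 to 52.4) and 62.0% (57.1 to 66.6), in proliferating cells in 10.4% and 23.8%, and in arterial-like cells in 0.80% and 2.01%. All 5 were found in 1.10% of PBS and 2.86% of cGAMP ECs. Of the cells with at least 3, 216 of 303 in the PBS and 259 of 344 in the cGAMP library were venous-like.

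Over cells, the gene most like Selp by Pearson correlation was Ackr1, with a Pearson r of the deposited log values of 0.69 over the 2517 PBS and 0.81 over the 1340 cGAMP cells. It was followed by Lrg1, Icam1, Il6st and Dnm3, of which Lrg1 is a venous marker and Il6st encodes the shared receptor chain of the interleukin-6 family. Those most like Ackr1 after Selp were Lbp, Il6st, Hdc and Ptgs1, and those most like Sele were Selp, Ackr1, Hdc, Il6st and Icam1. Icam1 was most like Selp, Lrg1, Dnm3, Fbln2 and Nfkbiz, the last a gene induced by NF-kB. Vcam1 was most like Gbp5 (0.33 and 0.41), Icam1, Cxcl10, Neurl3 and Iigp1, of which Gbp5, Cxcl10 and Iigp1 are interferon-induced. Icam2 was most like Cd81, Cldn5, Anxa2, Myl6 and Sparc, and its r with Selp was -0.35 in each library. These correlations are descriptions, as the cells of a library share its preparation and differ in depth and class. By rank correlation 4 of the 5 genes were the same for Icam1, 3 for Sele, Icam2 and Ackr1, and 2 for Selp and Vcam1. Ackr1 was then not among the 5 most like Selp, which Lrg1 led, and Gbp5, Cxcl10 and Iigp1 were not among the 5 most like Vcam1, which Neurl3 led. Within venous-like cells alone the r of Selp with Ackr1 was 0.60 and 0.64.

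**Figure D5:**
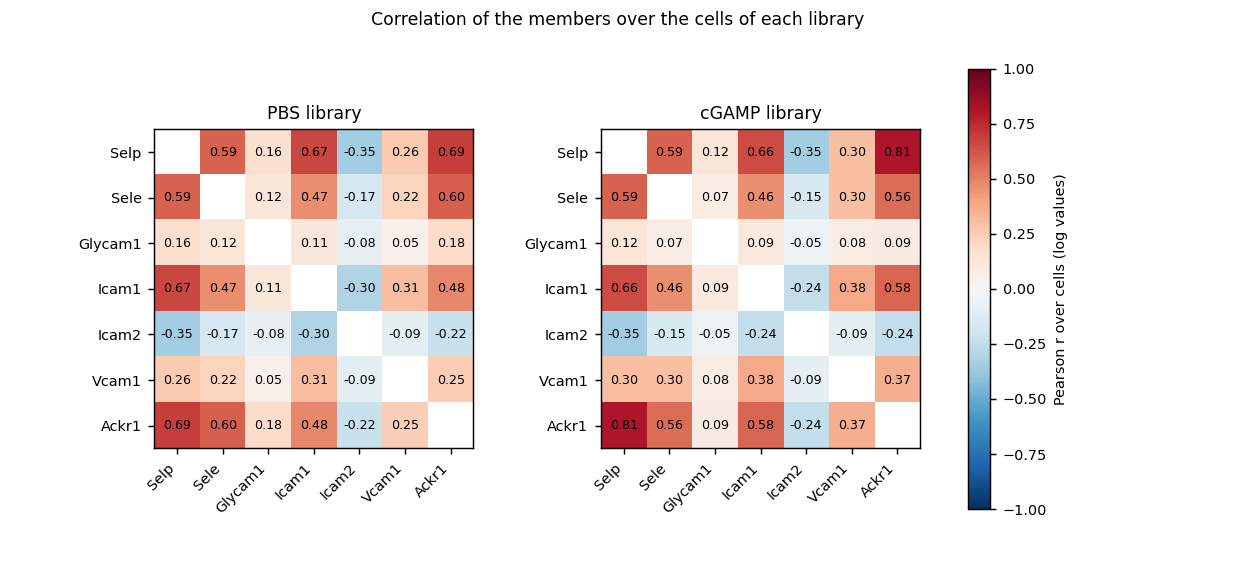
Pearson correlation over cells of the deposited log values for each pair of the 7 genes, in the PBS library on the left and the cGAMP library on the right, from blue at -1 to red at 1. Selp, Sele, Icam1 and Ackr1 are positively correlated with each other, Icam2 is negatively correlated with Selp at -0.35 in each library, and Glycam1 has r of at most 0.18 with each of the others.

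Other genes of leucocyte recruitment were taken from lists of general knowledge and are given by their counts, beside a median log2 ratio of -0.08 over all genes, of which 1.82% were at least 2-fold higher and 1.70% at least 2-fold lower. Of 11 chemokine genes above the minimum, 10 were higher and 5 at least 2-fold higher in the cGAMP library, with a median log2 ratio of 0.97. They included Ccl5 (6.47 to 461 CPM) and Ccl4 (0.326 to 5.56 CPM), and the 1 lower, Ccl21a, had 493 UMIs in the PBS library of which 485 were in 1 cell, and 0 in the cGAMP library. Among 11 genes of Weibel-Palade bodies, where P-selectin is stored, the median over all ECs was -0.16, as 4 were higher, 7 were lower and none differed 2-fold. Vwf, their main cargo, was the lowest at -0.99 (244 to 123 CPM), followed by Rab3d at -0.84, and Angpt2 (0.56) and Cd63 (0.39), a protein of the granule membrane, were the highest. Vwf was thus lower and Selp higher over all ECs. Within venous-like cells Vwf was at 477 and 202 CPM, Rab3d at 18.9 and 7.99 CPM and Angpt2 at 169 and 466 CPM. In arterial-like cells they were at 282 and 77.1, 16.7 and 7.11, and 139 and 358 CPM. Within these classes each of these genes thus differed by more than 2-fold.

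Of 9 genes of selectin ligands and their enzymes 3 were higher and 6 lower, with Emcn the highest (0.73) and Chst1, at -1.03, the 1 that differed 2-fold. The 12 cytokine receptor genes had a median of 0.03, with 7 higher, 5 lower, Il4ra the highest (0.42) and Ifnar1 the lowest (-0.72). The 10 genes of NF-kB and its feedback had a median of -0.03, with 5 in each direction, from Rela at -0.47 to Irf1 at 0.73. Of 11 junction molecules of transmigration 5 were higher and 6 lower, from Jam3 at -0.44 to Cd47 at 0.42. All 7 genes of anchoring and docking were lower, with a median of -0.16 and Cav1 the lowest (-0.85), but median-of-ratios scaling, which moves all genes up by 0.09, made 1 of them higher. Of 4 genes of shedding proteases 3 were lower, Adam10 the most (-0.47). The 2 atypical or scavenging chemokine receptors above the minimum besides Ackr1, Ackr3 and Ccrl2, were at 0.09 and 0.36. Median-of-ratios scaling also made 10 of the 12 cytokine receptor genes and 6 of the 10 NF-kB genes higher, raised the chemokine genes at least 2-fold higher to 7, and left Chst1 short of 2-fold.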

How the data were processed

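According to the methods and labels, Cell Ranger 3.0.0 was used by the authors with mm10, and Seurat 3.1.1 to remove cells with fewer than 500 genes or over 10% mitochondrial UMIs, genes in fewer than 3 cells, and clusters without Pecam1. The kit was version 3 by the methods and version 2 by the labels. Each deposited value is the natural log of 1 + x, where x is the gene's UMIs per 10000 of its cell. These were turned back into UMIs here, which gave a whole number, to within 0.01, for 100% of nonzero entries. Transcripts were read from their 3′ ends, so levels are compared within a gene and not between genes.

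UMIs were summed per library and class, with exact Poisson intervals for CPM, exact conditional binomial intervals for log2 ratios and Clopper-Pearson intervals for shares. The calculations were tested on simulated counts. Classes were made with Seurat 5.3.0 in R 4.3.3, with 2500 variable genes, of which 1790 were kept, integration anchors, 30 principal components and a Louvain resolution of 0.5. A class name required 3 or more of its markers raised 2-fold over the other clusters (5 CPM added, mean of both libraries), and among the top 10 genes of the cluster no other class could have more markers. Doublets were not removed. Rebuilt classes need not be those of the study. Shares were taken after thinning to 5000 UMIs, which left out 70 PBS and 13 cGAMP cells. The genes most like each member were the 5 with the highest of the lower r of the libraries among those with at least 20 CPM in either; Glycam1 was below that level. List genes named are the largest ratios in each direction. Other calculations used numpy 2.4.6, scipy 1.17.1 and pandas 2.3.3, and figures matplotlib 3.10.9. Gene positions are from GENCODE vM21 on GRCm38.

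The 7 genes and the lists were chosen with earlier results of these data known. Alternatives were other scalings, thinning, cell filters, class proportions, clustering settings and minimum levels. One promoter motif is not reported here.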

Additional observations from a re-analysis of the deposited data

Results flagged for a closer look

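Some of the 7 genes differed between the libraries in opposite directions in different classes, with intervals for counting error on opposite sides of 0. With 1 library per group these differences were not tested. For Selp the log2 ratio of cGAMP over PBS was -0.55 in arterial-like cells, against 0.23 in venous-like, 0.33 in tip-like and 0.85 in proliferating cells. The arterial-like value was below 0 under 3 of 7 other ways of forming the classes and ranged from -0.86 to 0.24, and the tip-like value was above 0 under 4 of 7, at -1.31 without integration, -0.47 with all variable genes and -0.18 with the 7 genes alone left out of them. For Sele the ratio was -2.65 in arterial-like cells, on 29 and 3 UMIs, against 0.58 in proliferating cells. For Icam1 it was -0.28 in venous-like cells, against 0.19 in arterial-like, 0.58 in tip-like and 0.51 in proliferating cells.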

How the results depend on the processing

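With 1 mouse per library, no spread between mice could be measured. No paired analysis was possible because each group is 1 library. Over all ECs each of the 7 genes kept a ratio above 0 under every alternative run. The log2 ratios of cGAMP over PBS moved as follows. With each cell counting equally they were 0.89 for Selp, 0.71 for Glycam1, 0.41 for Icam1, 0.85 for Vcam1 and 1.77 for Ackr1. With median-of-ratios scaling they were 1.07 for Selp, 0.58 for Icam1, 0.12 for Icam2, 0.86 for Vcam1 and 2.20 for Ackr1. With class proportions held equal they were 0.39 for Selp, 0.033 for Sele, 0.24 for Glycam1, 0.037 for Icam1, 0.12 for Icam2, 0.61 for Vcam1 and 1.41 for Ackr1. Thinned to 5000 UMIs they were 0.85 for Selp, 0.51 for Sele, 0.58 for Glycam1, 0.36 for Icam1, 0.94 for Vcam1 and 1.78 for Ackr1. With a mitochondrial limit of 5%, which left out 855 PBS and 92 cGAMP cells, they were 1.23 for Selp, 0.95 for Sele, 1.89 for Glycam1, 0.58 for Icam1 and 2.49 for Ackr1. Without the 966 and 796 cells with any UMI of Ptprc, Itga2b, Ppbp, Pf4, S100a8 or S100a9, which takes out many venous-like cells through Itga2b, they were 0.61 for Selp, 0.029 for Sele, 1.76 for Glycam1, 0.42 for Icam1, 0.42 for Vcam1 and 1.57 for Ackr1. Without cells with Ptprc, Ppbp, Gp9, S100a8 or S100a9, chosen after seeing the data, they were 0.80 for Selp, 0.57 for Sele, 0.43 for Icam1, 0.69 for Vcam1 and 1.98 for Ackr1. The genes at least 2-fold higher numbered 2 as reported, 1 with each cell counting equally, with class proportions held equal and when thinned, and 3 with median-of-ratios scaling and the mitochondrial limit.

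Within venous-like cells 1 gene was at least 2-fold higher, but 0 were at resolutions of 0.3, 0.8 and 1.2, with all variable genes, with the 7 genes alone left out of them and without integration. The share of venous-like cells was higher in the cGAMP library by 12.8 percentage points, by 23.9 without integration and by 7.47 by marker ranks. The ratio of Sele in arterial-like cells turned to 0.18 at a resolution of 0.3 and that of Glycam1 in tip-like cells to -0.70 with all variable genes. In the venous-like cells the sign of Glycam1 held under 1 of 7 alternatives. Of the listed recruitment genes 5 were at least 2-fold higher, and 3 at a minimum of 20 CPM. The causes were not tested.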

Other observations

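Chst4, the sulfotransferase that completes L-selectin ligands in high endothelial venules, was below 5 CPM in both libraries and so outside the counts above, and it is named here after its values were seen. It had 14 UMIs in the PBS library (0.152 CPM, in 12 cells) and 142 in the cGAMP library (2.24 CPM, in 73 cells), a log2 ratio of 3.88 (3.09 to 4.79). Venous-like cells held 71.4% and 73.9% of these UMIs, at 0.764 and 5.59 CPM. A Chst4 UMI was found in 7.84% of PBS cells with Glycam1 and 0.324% of those without, and in 20.3% and 4.58% of cGAMP cells. Of the 4 listed genes of these venules above the minimum besides Glycam1, Chst2 was higher, at a log2 ratio of 0.03, and Ltbr (-0.02), Enpp2 and Ccl21a were lower, the last 2 at least 2-fold, against 1.70% of all genes, with 485 of the 493 PBS UMIs of Ccl21a in 1 cell. Enpp2, which makes lysophosphatidic acid at these venules, was at 18.8 CPM in the PBS and 6.28 CPM in the cGAMP library, a log2 ratio of -1.58, and was lower in each class. Fut7 had 3 and 0 UMIs and Madcam1 had 14 and 7.

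Itga2b, the integrin chain best known from platelets, was at 32.4 CPM in PBS and 35.2 CPM in cGAMP venous-like cells, against 12.9 and 17.7 CPM over all ECs, while Gp9, Gp1ba and Treml1 were at or below 0.107 CPM in venous-like cells of both libraries.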
